A study of Drosophila melanogaster with 4 samples.

Results

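Gaps in the map of histone H1 are long stretches of a chromosome arm in which no H1-enriched region was called. They were chosen by the positions of regions in the authors' combined table, as stretches of 20 kb or more between the end of a region and the start of the next on the arms X, 2L, 3L and 3R, after overlapping or touching regions had been joined. There were 740 of them among 14276 stretches between regions, so that 5.18% of all stretches reached the limit. The study assayed the wild-type Oregon-R strain of Drosophila melanogaster at the third larval instar by chromatin immunoprecipitation and sequencing (ChIP-seq) with an antibody against H1. It held 2 H1 ChIP samples and 2 input samples, all of the same strain, genotype and stage. A list of enriched regions came with each ChIP sample, and the combined table covers the replicate set. The input libraries were not analysed here, and the read depth is unknown from these lists. The labels do not say whether the replicates came from separate cultures or name the sex of the larvae.

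H1 is the linker histone. It binds where DNA enters and leaves the nucleosome, helps to pack nucleosomes together, and is known to be thinner over active promoters than over silent chromatin. The signal is an average over the larval tissues that were homogenised, which the labels do not name. Many larval cells are known to be polytene, with chromosomes copied many times without division. A gap is the absence of a called region, which is not the same as an absence of H1: a region enters a list only where enrichment passes the caller's threshold, which is not given in the sources used here. The lengths and numbers of gaps in the combined table are fixed by the way they were chosen, so they are given as a description, with no test. The replicates are the libraries that the combined table bears on, so their regions are no independent check of it, and 2 samples allow no test.

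At the limit of 20 kb the X held the most gaps, and the longest, though with 15 kb 3L had more (281 against 272). At 20 kb the X had 222 gaps with a sum of 10.4 Mb, which is 46.4% of the arm. The autosomal arms 2L, 3L and 3R had 144, 191 and 183 gaps, with 5.59, 7.07 and 6.70 Mb in gaps, or 24.3%, 28.8% and 24.0% of each arm. The X therefore carried 1.44 times as many gaps per Mb as the 3 autosomal arms together and 1.81 times the share of sequence, 46.4% against 25.7%. With 22.9% of the sequence of the 4 arms, it held 30.0% of the gaps and 35.0% of the gap sequence.

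Gaps made up a small part of the stretches between regions but a large part of the sequence outside them. On the X, 8.85% of the stretches were gaps, and these held 57.8% of the sequence between regions. On 2L, 3L and 3R, 4.03%, 5.23% and 4.03% of the stretches were gaps, holding 36.2%, 41.2% and 38.3%. The number of combined regions went the other way, with 112 regions per Mb on the X against 155 on 2L, 149 on 3L and 163 on 3R. The median stretch measured 2255 bp on the X and 1490, 1563 and 1187 bp on 2L, 3L and 3R.

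A limit of 20 kb is fewer times the mean stretch on the X than elsewhere, since its regions lie further apart. The mean stretch was 7173 bp on the X, against 4322 bp on 2L, 4701 bp on 3L and 3857 bp on 3R. When the limit was set to 4.19 times the mean stretch of each arm (a setting added once the values were known), it came to 30.1 kb on the X and to 18.1, 19.7 and 16.2 kb on 2L, 3L and 3R. The X then had 150 gaps, or 5.98% of its stretches, while 2L, 3L and 3R had 171, 195 and 231 gaps, or 4.79%, 5.34% and 5.09%. Relative to the spacing of its own regions, the X thus had fewer gaps than each of the other arms, though a slightly higher share of its stretches. Its share of sequence in such gaps was still the highest, at 38.4%, against 26.5% on 2L, 29.1% on 3L and 27.1% on 3R. The sources used here do not say whether the lists were corrected for copy number.

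Most gaps measured under 50 kb. The median length was 37.3 kb on the X (quartiles 27.9 and 55.1 kb) and 31.2, 30.4 and 29.9 kb on 2L, 3L and 3R. Of the 740 gaps, 326 measured under 30 kb, 250 measured 30 to 50 kb, 141 measured 50 to 100 kb and 23 measured 100 kb or more. The X held 14 of these 23, against 5 on 2L and 2 each on 3L and 3R. Gaps of 50 kb or more were 29.7% of the gaps of the X, against 19.4%, 18.8% and 18.6% of those of 2L, 3L and 3R.

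**Figure D1:**
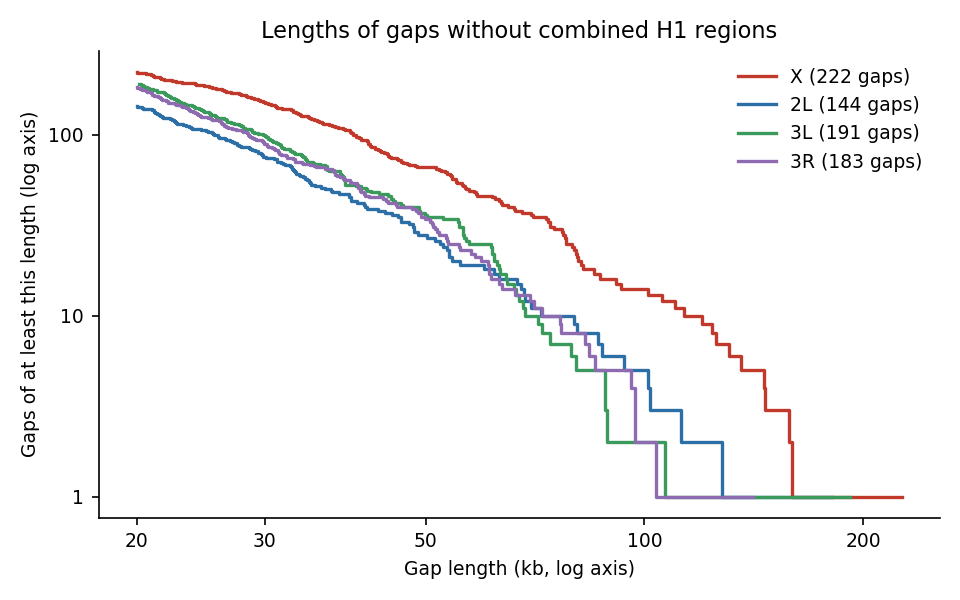
Number of gaps (log axis) of at least a given length in kb (log axis) in the combined table, as 1 line for each arm. The line of the X lies at or above the others from 20 kb upward, with 14 gaps of 100 kb or more, while the lines of 2L, 3L and 3R run close together.

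At the limit itself, the shortest gaps were on the X at 5042813 to 5062831 (20019 bp) and on 2L at 14633503 to 14653539 (20037 bp). The longest stretches just below it were both on the X, of 19995 bp at 13422973 to 13442967 and of 19971 bp at 11631983 to 11651953. All positions are those of FlyBase Release 5.

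Of the 10 longest gaps over the 4 arms, 7 lay on the X. The longest of all lay on the X at 15581641 to 15807621 and measured 226 kb, with no region of either replicate inside it. Around it, replicate 1 had no region over 524 kb and replicate 2 none over 649 kb. Further gaps of the X measured 159 kb at 11385515 to 11545009, 158 kb at 1712471 to 1870809, 147 kb at 8954271 to 9101011, 146 kb at 13601927 to 13748039, 136 kb at 3562831 to 3698877 and 131 kb at 18798477 to 18929453. These 7 gaps were spread from 7.99% to 84.1% of the way from the telomere to the centromere, so the long gaps of the X did not sit in a single place.

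On the autosomal arms the longest gap was shorter than that of the X. On 3L the longest measured 192 kb, at 17883911 to 18075743, and the next were 107 kb at 15491083 to 15597851 and 89.0 kb at 11215995 to 11304959. On 2L the 3 longest measured 181 kb at 10196515 to 10377891, 128 kb at 21416019 to 21543973 and 112 kb at 7939839 to 8052063. On 3R they measured 141 kb at 10467929 to 10608903, 104 kb at 8221811 to 8325545 and 97.2 kb at 17395601 to 17492755. Of the 10 longest gaps on any arm, 9 held no region of either replicate, a share near the 81.8% of all gaps and the 83.6% of all stretches that held none. The exception was the longest gap of 2L, in which replicate 1 had 2 regions that together covered 1473 bp.

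Each arm was also cut into 10 equal windows, numbered from 1 at the telomere to 10 next to the centromere. Gaps occurred in all of them, and the share of a window in gaps varied by from 1.89 to 3.12 times within an arm. On the X it was highest in window 8 (58.7%) and lowest in window 10 (31.0%). On 2L it was highest in window 4 (38.7%), with 33.6% in window 10, and lowest in window 7 (12.4%). On 3L windows 3 and 10 had the least, 17.5% and 17.8%, and window 7 the most, 37.2%. On 3R window 2 had 13.8% and window 10 had 30.6%.

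Between windows 1 to 5 and windows 6 to 10 the mean share in gaps differed little, except on 2L. It was 46.8% and 45.9% on the X, 28.0% and 29.6% on 3L, and 22.3% and 25.7% on 3R, while on 2L it was 28.1% in the windows towards the telomere and 20.4% in those towards the centromere. The lowest window of the X, with 31.0% in gaps, exceeded every window of 3R but not the highest windows of 2L and 3L.

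**Figure D2:**
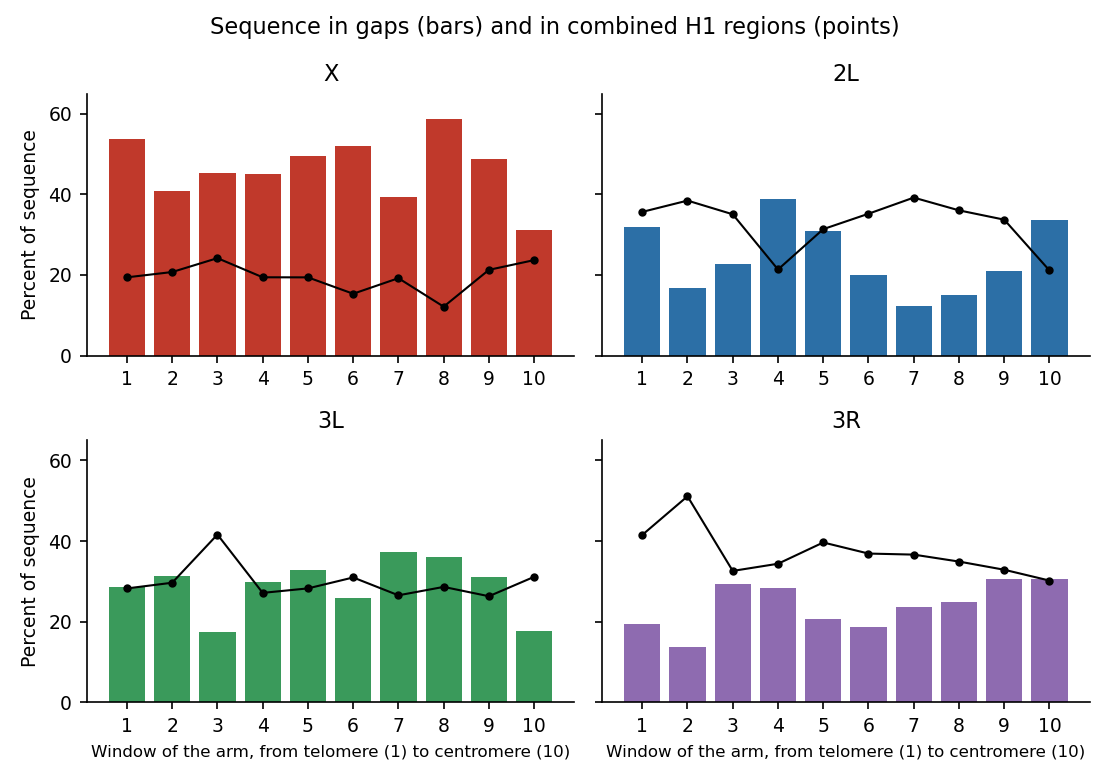
Percent of the sequence in gaps (bars) and in combined H1 regions (points) in 10 equal windows of each arm, from the telomere (1) to the centromere (10). The bars of the X range from 31.0% to 58.7%, those of the autosomal arms from 12.4% to 38.7%.

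In windows of 1 Mb, the richest in gaps had few regions of either replicate. The window of the X from 19000001 to 20000000 had 65.9% of its sequence in 13 gaps, and replicates 1 and 2 covered 1.69% and 1.65% of it, against 2.54% and 2.80% of the whole arm. The window of 3L from 1 to 1000000, at the telomere, had 57.2% in gaps and replicate coverage of 2.47% and 1.96%, against 4.74% and 6.02% of the arm. That of 3R from 5000001 to 6000000 had 49.3% in gaps, and that of 2L from 8000001 to 9000000 had 45.9%. In these the replicates covered 3.59% and 2.54% on 3R, against 7.20% and 8.42% of that arm, and 2.31% and 2.26% on 2L, against 5.50% and 6.77%. In each of these windows both replicates covered less than over the whole arm. The replicates bear on the table that chose the windows, so this is a description.

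Long stretches without any gap were found as well. The longest distance between successive gaps on the X was 423 kb, at 11926526 to 12349496, with 28.5% of it in combined regions. It was longer and denser in regions on the autosomal arms. On 2L it was 696 kb, at 17433870 to 18129562 (50.5%), on 3L 747 kb, at 4373512 to 5120504 (50.7%), and on 3R 774 kb, at 2996376 to 3770084 (49.7%). The median distance between neighbouring gaps was 29.4 kb on the X, against 68.1 kb on 2L, 40.3 kb on 3L and 64.8 kb on 3R.

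The stretch directly after a gap was a gap more often than stretches of the arm in general on the X, 3L and 3R. On 2L it was so about as often. On the X, the stretch after a gap was itself a gap in 53 of 222 cases, or 23.9% (95% Wilson interval 18.7 to 29.9%), against 8.85% of all stretches of that arm. On 3L this was so in 32 of 190 cases, or 16.8% (12.2 to 22.8%), against 5.23%, and on 3R in 30 of 183, or 16.4% (11.7 to 22.4%), against 4.03%. On 2L it was so in 6 of 144 cases, or 4.17% (1.92 to 8.79%), against 4.03%. The intervals cover the counting of gaps only, gaps of an arm are not independent replicates, and the difference between 2L and the other arms was not tested.

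The grouping was not a matter of the next stretch alone on every arm. On the X the share of gaps was 16.2% at stretch 2 after a gap and lay between 10.8% and 14.9% at stretches 3 to 9, above the 8.85% of the arm, and was 6.76% at stretch 10. On 3R it was 9.29% at stretch 2 and 3.83% at stretch 7, against 4.03% over the arm. On 3L it was above the 5.23% of the arm at each of the 10 stretches, with 13.2% at stretch 3 and 9.52% at stretch 10. On 2L it varied from 4.17%, at stretches 1 and 6, to 9.03% at stretch 3, against 4.03% over the arm. It was thus at or above the share of that arm at each of the 10 stretches.

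**Figure D3:**
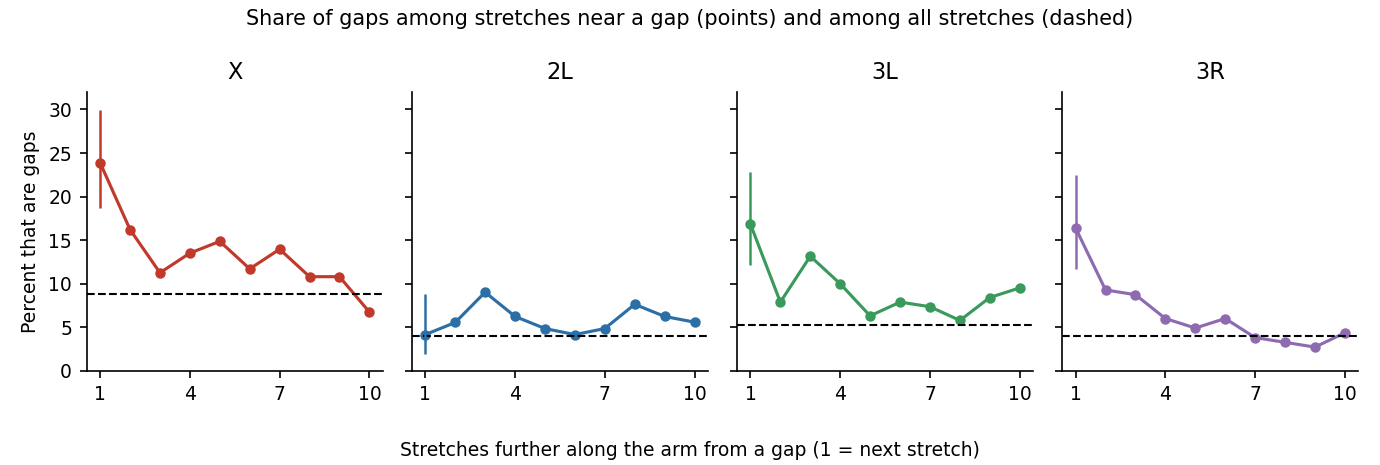
Percent of stretches that were gaps at stretches 1 to 10 after a gap (points), for each arm, with the share among all stretches of the arm as a dashed line. The bar at stretch 1 is the 95% Wilson interval. The first point stands at 23.9% on the X, 4.17% on 2L, 16.8% on 3L and 16.4% on 3R.

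In all, 217 of the 740 gaps, or 29.3%, had a gap as a direct neighbour on at least 1 side. This held for 94 gaps of the X, 12 of 2L, 56 of 3L and 55 of 3R. They formed 74 pairs, 19 runs of 3 and 3 runs of 4 gaps, each parted by single combined regions. These counts take in both sides of a gap, and the like share over all stretches was not computed, so they alone are no measure of grouping. Of the stretches beside gaps on 2L, 4.17% were gaps, close to the 4.03% of all its stretches, so its 12 gaps mark no clear excess. On the X, 3L and 3R it was 23.9%, 16.8% and 16.4%, against 8.85%, 5.23% and 4.03%. A run of 4 was on each of X (2470761 to 2642679), 3L (19686097 to 19832189) and 3R (1362229 to 1513509). On 2L no run had more than 2 gaps. The longest of these, at 10196515 to 10447735, joined its longest gap of 181 kb to a gap of 68.6 kb.

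Runs of gaps were nearly empty of combined regions by the way they were defined, so their content is given as a description. The run of 4 gaps on the X spanned 172 kb with gaps of 35.7, 79.5, 28.4 and 24.8 kb, so that 97.9% of it was gap. The 3 combined regions in it measured from 1051 to 1297 bp. None of these regions overlapped a region of a replicate, while 1 region of replicate 1 lay elsewhere in the run. In the run of 4 on 3L, which spanned 146 kb, 1 of the 3 parting regions overlapped replicate 1 and none overlapped replicate 2. The same was true of the run of 4 on 3R, which spanned 151 kb.

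Regions of the replicates were rare within gaps. Replicate 1 covered 0.125% of the gap sequence and replicate 2 covered 0.0809%, a mean of 0.103 ± 0.0311% (SD, n = 2). In stretches of 10 to 20 kb, the class next below the limit, they covered 0.163% and 0.236% (mean 0.199 ± 0.0513%). In stretches under 10 kb they covered 0.437% and 0.735% (0.586 ± 0.210%), and in the combined regions themselves 16.4% and 19.5% (17.9 ± 2.22%). Over the 4 arms together both replicates covered less of the gaps than of shorter stretches, of which more lies near an edge. By arm, replicate 1 on 2L covered 0.156% of the gaps and 0.129% of stretches of 10 to 20 kb, and replicate 2 on 3R covered 0.0741% and 0.0685%. At like distance from an edge, replicate 1 covered 0.719% of gaps and 0.674% of stretches of 10 to 20 kb in the 1 kb next to it, and 0.126% and 0.114% from 1 to 5 kb. Replicate 2 covered 0.280% and 0.659% next to the edge, and 0.0530% and 0.207% from 1 to 5 kb.

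Of the 740 gaps, 85 had at least 1 bp of a region of replicate 1, or 11.5%, against 7.14% of all stretches on the 4 arms. For replicate 2 there were 51, or 6.89%, against 9.53% of all stretches. The replicates thus lay on opposite sides of the share over all stretches. A gap had a region of either replicate in 135 cases and of neither in 605. The 81.8% with neither was close to the 83.6% of all stretches. By gap length, a region of either replicate was in 17.8% of gaps of 20 to 30 kb, 18.4% of those of 30 to 50 kb, 18.4% of those of 50 to 100 kb and 21.7% of those of 100 kb or more, the last being 5 of 23 gaps. Replicate 1 was in 35 of the 326 gaps of 20 to 30 kb and 4 of the 23 of 100 kb or more, and replicate 2 in 23 and 1 of them.

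Most of these contacts were small overhangs at an edge. Of the 93 contacts of replicate 1 with a gap, 74 were by regions that reached over an edge, with a median of 79 bp inside the gap. For replicate 2 there were 43 of 56, with a median of 72 bp. Over all 14276 stretches, 1020 had some of a replicate 1 region and 44 a whole one, and 1360 and 54 for replicate 2. Overhangs were thus not confined to gaps. Their part among contacts cannot be compared with that in gaps, since many stretches are too short to hold a whole region. The median stretch measured 1517 bp and the shortest replicate region 1301 bp. The numbers over all stretches also count stretches, while those for gaps count contacts. Only 19 regions of replicate 1 and 13 of replicate 2 lay wholly within a gap, out of 2978 and 3439 regions on the 4 arms. These were spread over the arms, with 4, 5, 5 and 5 regions of replicate 1 on X, 2L, 3L and 3R, and 3, 2, 5 and 3 of replicate 2.

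The replicates rarely met outside the combined regions, in gaps or elsewhere, and had little room to do so. Only 44 of the 2978 regions of replicate 1 and 55 of the 3439 of replicate 2 lay off the combined regions. The others could meet there only by overhangs. No region of replicate 1 that touched a gap overlapped a region of replicate 2 that did so, and only 1 gap held regions of both, on 2L at 10721145 to 10757515. There replicate 1 reached 44 bp and replicate 2 reached 89 bp into it, so that both were overhangs. Over all 14276 stretches, 43 held regions of both, so few shared stretches are not a trait of gaps alone. Regions wholly within gaps measured 1308 to 2321 bp in replicate 1 and 1318 to 2145 bp in replicate 2. Their median scores, in the authors' units within each list, were 0.51 and 0.58, against 0.53 and 0.58 over all regions of that replicate on the 4 arms. Their scores were thus close to those of the other regions of their list.

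Per Mb of sequence, regions lying wholly within gaps numbered 0.638 in replicate 1 and 0.437 in replicate 2. In stretches of 10 to 20 kb the numbers were 0.504 and 1.09, and in stretches under 10 kb, where a whole region has less room, 0.718 and 1.06. Replicate 1 was therefore about as frequent in gaps as in shorter stretches, and replicate 2 was less frequent. On 19, 6 and 19 regions of replicate 1 and 13, 13 and 28 of replicate 2, these rates are loosely fixed.

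The 5 gaps with the most sequence in replicate regions were each marked by a single replicate. The first, on 3R at 7458751 to 7493451, had 2 regions of replicate 1 over 2376 bp. The other 4 were marked by replicate 2. They held 2315 bp on 3L (24515589 to 24537887), 1990 bp on the X (20877245 to 20954941), and 1837 bp and 1541 bp on 3L again (23888323 to 23910253, and 21870659 to 21890829). These 4 lay at 99.9%, 93.3%, 97.4% and 89.2% of the way from the telomere to the centromere. In window 10 of 3L, next to the centromere, replicate 2 covered 9.43% of the sequence and replicate 1 covered 4.02%. The replicates differed less in window 9 of 3L, with the gap at 89.2%, where they covered 4.49% and 3.91%. In window 10 of the X, with the gap at 93.3%, they covered 3.97% and 3.26%.

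Just outside a gap, the replicates differed in how much they covered. Within 2 kb of an edge, where the combined region that bounds the gap lies, replicate 1 covered 8.97% of the sequence at gaps, against 8.04% at stretches of 10 to 20 kb. Replicate 2 covered 6.28% at gaps, against 8.43%. From 2 to 5 kb outside, replicate 1 covered 4.11% and 4.36%, and replicate 2 covered 3.17% and 4.93%. From 10 to 20 kb outside, replicate 1 covered 4.00% and 4.29%, and replicate 2 covered 4.05% and 4.81%. Coverage next to gaps was thus lower in replicate 2 than next to shorter stretches, and in replicate 1 it was not within the first 2 kb. The combined regions also covered less outside gaps, 73.6% against 76.1% within 2 kb and 24.3% against 28.4% from 2 to 5 kb. The arms were pooled, and the X had 222 of the 740 gaps but 170 of the 860 shorter stretches.

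**Figure D4:**
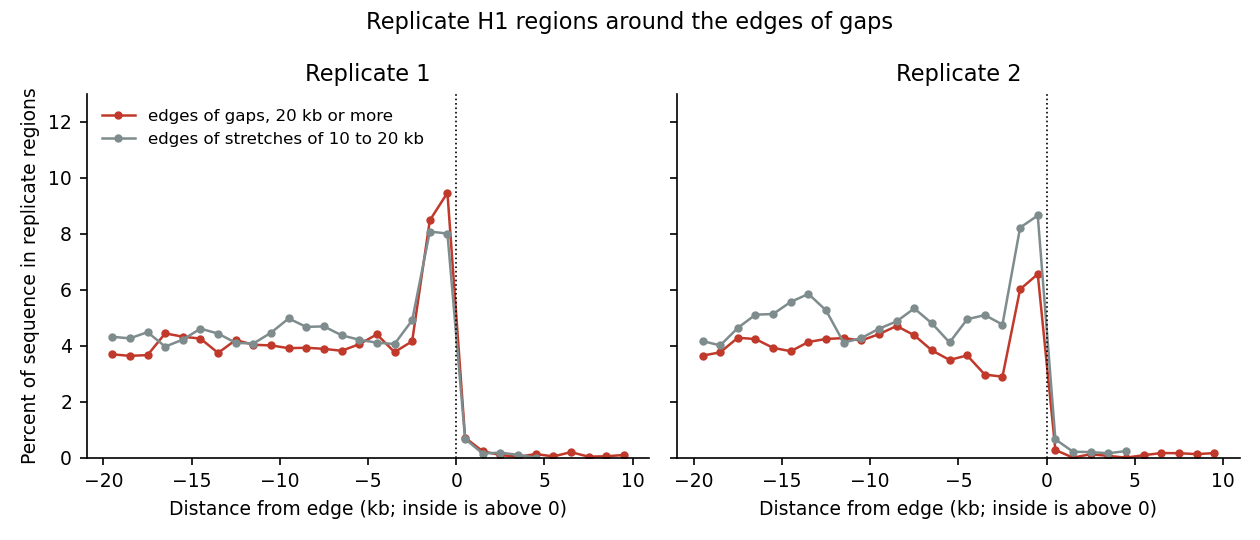
Percent of sequence in regions of replicate 1 (left) and replicate 2 (right), in bins of 1 kb by distance from an edge of a gap (red) or of a stretch of 10 to 20 kb (grey). Inside the gap coverage is under 1% in every bin. In the 2 kb outside it, gaps lie at 8.97% in replicate 1 and 6.28% in replicate 2, and shorter stretches at 8.04% and 8.43%.

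Combined regions that bound gaps were short. The 1359 regions beside a gap had a median length of 1355 bp, against 1659 bp for the 12921 regions beside no gap. The 121 regions that stood alone between a pair of gaps had a median of 1191 bp and none was longer than 3265 bp. Their scores hardly differed: the median was 0.38 beside a gap and 0.39 beside no gap. On the X it was 0.43 and 0.44, and on 2L, 3L and 3R it was 0.36, 0.37 and 0.36 beside a gap, against 0.38, 0.38 and 0.38.

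Fewer of the regions beside gaps had a counterpart in a replicate. Replicate 1 overlapped 13.2% of them (179 regions, 95% Wilson interval 11.5 to 15.1%), against 19.0% of all combined regions on the 4 arms. Replicate 2 overlapped 9.86% (134 regions, 8.39 to 11.6%), against 22.1% of all. Both replicates overlapped 1.55% of the regions beside gaps and 7.34% of those beside no gap. Of the regions alone between a pair of gaps, 7 overlapped replicate 1 and 5 overlapped replicate 2, and 90.1% overlapped neither, against 65.7% of all combined regions. Of these 121 regions, 79.3% measured under 1500 bp, a length at which replicates 1 and 2 overlapped 4.18% and 5.51% of regions beside no gap.

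A longer region overlaps other regions more often, so regions of like length were set side by side. The intervals of replicate 1 then overlapped in each class of length. Replicate 2 had a lower share beside gaps in each class, but its intervals overlapped too under 1500 bp and at 5000 bp or more. Under 1500 bp they were 2.41 to 4.97% and 4.93 to 6.15%, and at 5000 bp or more 33.2 to 76.9% and 75.1 to 81.7%. Among regions of 1500 to 2500 bp, replicate 1 overlapped 18.8% beside gaps (15.4 to 22.7%) and 19.9% beside no gap (18.7 to 21.1%). Replicate 2 overlapped 15.0% (11.9 to 18.6%) and 24.4% (23.2 to 25.7%). At 2500 to 5000 bp the shares were 48.4% (38.6 to 58.3%) and 40.1% (38.2 to 42.1%) in replicate 1. In replicate 2 they were 32.6% (24.0 to 42.6%) and 47.1% (45.2 to 49.1%). Under 1500 bp they were 4.58% and 4.18% in replicate 1, and 3.47% and 5.51% in replicate 2. Only 16 regions beside gaps measured 5000 bp or more. Replicate 1 overlapped 13 of them, against 73.2% beside no gap, and replicate 2 overlapped 9, against 78.6%.

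The lower share in replicate 2 was found on each arm, to differing degrees. Among regions of 1500 to 2500 bp, replicate 2 overlapped 8.33% beside gaps and 25.2% beside no gap on 3R, and 14.1% and 25.7% on 2L. On 3L it overlapped 20.9% and 25.4%, and on the X 14.5% and 19.8%, and the intervals overlapped on these arms. Replicate 1 overlapped 27.2% and 19.3% on 2L, 19.8% and 20.9% on 3R, 14.7% and 19.8% on 3L, and 16.1% and 19.0% on the X, with intervals that overlapped on each arm. Regions are not replicates, and no test between the 2 libraries was possible.

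**Figure D5:**
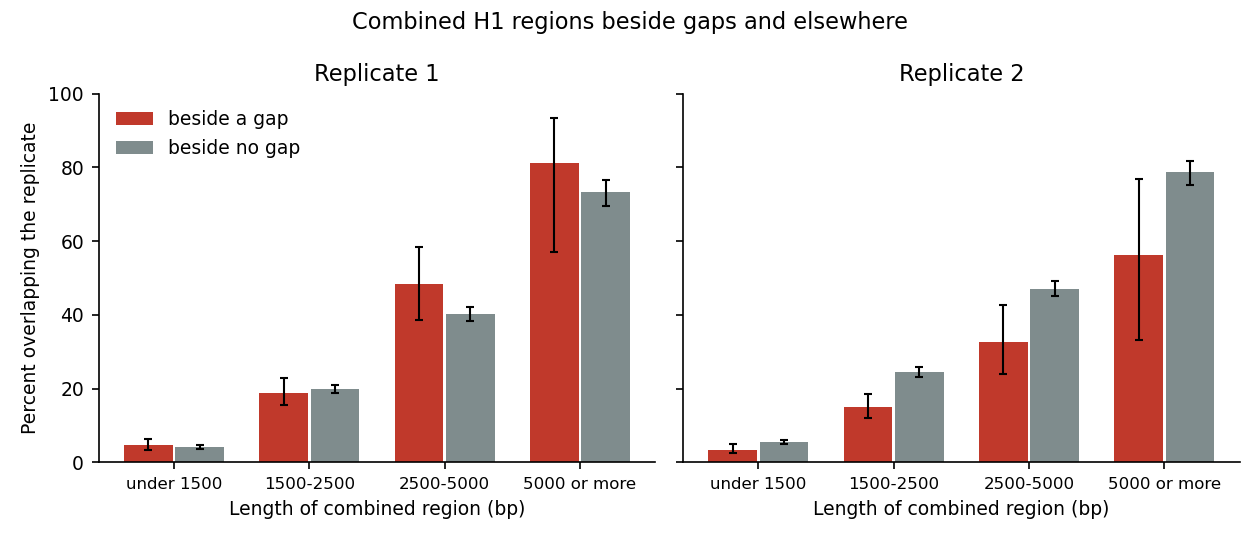
Percent of combined regions beside a gap (red) and beside no gap (grey) that overlapped a region of replicate 1 (left) or replicate 2 (right), by length of the combined region in bp. Error bars are 95% Wilson intervals over regions. For regions of 1500 to 2500 bp the bars stand at 18.8% and 19.9% in replicate 1, and at 15.0% and 24.4% in replicate 2.

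The replicates' own lists are sparser, so a stretch free of a replicate around a gap was far longer than the gap. Of the 740 gaps, 655 held no region of replicate 1, and the stretch without replicate 1 regions around them had a median of 129 kb. For replicate 2, 689 gaps held none, and the median was 146 kb. Both medians were taken over gaps, so a stretch that met several gaps counts once for each. Over all stretches between regions of their own lists, the medians were 11.8 kb in replicate 1 and 8.38 kb in replicate 2. The longest such stretch of replicate 1 was 553 kb on the X at 17270938 to 17823911, which met 5 gaps that filled 61.3% of it. That of replicate 2 was 723 kb, also on the X, at 16154568 to 16877900, with 10 gaps in 74.6% of it. The 2 stretches do not overlap, but other stretches of replicate 1 on the X were nearly as long as its longest. Around the gap at 13601927 to 13748039, replicate 1 had no region over 552.7 kb and replicate 2 none over 564 kb. Around the gap at 11385515 to 11545009 these lengths were 552.7 and 556 kb.

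Taking regions of all 3 lists together hardly altered the map of gaps, and could hardly do so. Only 44 of the 2978 regions of replicate 1 and 55 of the 3439 of replicate 2 lay off the combined regions. Stretches of 20 kb or more free of any list numbered 736, against 740 in the combined table, with 222 on the X, 142 on 2L, 189 on 3L and 183 on 3R. They made up 46.0%, 23.9%, 28.4% and 23.6% of these arms. Raising the score at which a combined region counts, to the median of the list or above, changed the arms unequally: the X then had 232 gaps, while 2L, 3L and 3R had 250, 301 and 320. The median score of combined regions was 0.44 on the X and 0.38 on each of 2L, 3L and 3R, against 0.39 over the whole list.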

How the data were processed

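Enriched regions from 2 H1 ChIP samples and 1 combined table of the series were used. Per the file headers, positions are on FlyBase Release 5. Each region carries a score that the authors computed and deposited, and its scale, the caller and the threshold are not stated there. The submitters' processing notes list Bowtie 0.12.7 without saying what it did. Read depth is unknown, so no value carries a counting error of reads.

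Overlapping or touching regions were joined, which removed 4 regions of the combined table, and stretches between them were measured. Stretches at the arm ends were left out. Overlap meant at least 1 bp. Where a share of gaps or regions is given with an interval, it is a 95% Wilson interval. The stretch finder was tested on simulated data with planted gaps. Gaps named are the 10 longest, the 3 longest of each arm, 2 on either side of the limit, the longest run of each arm and the 5 with most replicate sequence; windows of 1 Mb are the richest of each arm. The members and lists were chosen with earlier results of these data known. The annotation at hand is Release 6, so genes and sequence in gaps were not analysed here. Computation used pandas 2.3.3, numpy 2.4.6 and scipy 1.17.1 under Python 3.11.15, and plots used matplotlib 3.10.9.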

Additional observations from a re-analysis of the deposited data

How the results depend on the processing

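The limit on length decided the number of gaps. With gaps of 30 kb or more there were 414 on the 4 arms, with 151 on the X, 75 on 2L, 99 on 3L and 89 on 3R. With 15 kb or more the X had 272, 2L 217, 3L 281 and 3R 254, so that 3L and not the X had the most. With 15 kb the share of X, 2L, 3L and 3R in gaps was 50.3%, 29.8%, 35.1% and 28.4%, with 30 kb it was 38.6%, 17.0%, 19.8% and 15.9%, and with stretches free of all 3 lists 46.0%, 23.9%, 28.4% and 23.6%. The X had the highest share in each, though the last setting could change little, since few replicate regions lay off the combined regions. With combined regions at or above the median score, gaps numbered 232 on the X, fewer than the 250 on 2L, 301 on 3L and 320 on 3R. Fewer gaps held a whole replicate region than held 1 bp of one: 19 for replicate 1, 13 for replicate 2 and 32 for either. With gaps of 30 kb or more, 50, 28 and 77 held 1 bp. Leaving out a replicate gave from 0.0809% to 0.125% of gap sequence covered. The next gap began within 50 kb in 51.8% of cases, against 16.4% of gaps followed directly by a gap. Requiring 50% of a combined region to be covered left 10.3% of regions beside gaps with replicate 1 and 8.02% with replicate 2, against 12.8% and 16.1% of those beside no gap, and beside gaps of 30 kb or more replicate 2 overlapped 7.72%. Combined regions of at least 1301 bp, the shortest of either replicate, gave 879 gaps. Of these, 231 were on the X, 205 on 2L, 238 on 3L and 205 on 3R, so that 3L again had the most. The limit scaled to each arm, added after seeing the data, gave 747. No paired analysis was possible because the gaps rest on the ChIP lists alone, with no second group to pair. Unknown read depth limits what the absence of a region can show.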

Other observations

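Outside the 4 arms, long stretches without combined regions were common on sequences with few regions. Chromosome 4, with 56 regions, had 19 such stretches of 20 kb or more in 77.5% of its 1.35 Mb, the longest of 171 kb. The unplaced sequence U had 145 in 74.3% of its 10.0 Mb. Of the placed heterochromatin, 3RHet had 25 in 41.2% and 3LHet had 21 in 26.8%, close to the 28.8% of the arm 3L. How well reads could be placed on these sequences was not analysed here, so the shares are no measure of H1 on them.

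At the telomeric ends, which no region bounds and which were not counted as gaps, the sequence without a combined region measured 40.9 kb on the X, 22.9 kb on 2L, 28.2 kb on 3L and 34.4 kb on 3R. At the centromeric ends of the arm sequences it measured 29.6 kb on the X, 25.7 kb on 2L, 4.06 kb on 3L and 7.61 kb on 3R.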
